A study of Carex littledalei with 18 samples.

Results

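Kobresia littledalei, also named Carex littledalei, is a sedge that grows on the Tibetan plateau. The genes described here are 150 assembled leaf transcripts whose level after 48 h at -5 °C lay above every earlier library. They were taken from 214531 rows of a transcriptome assembly. Per the labels, plants came from field ground in Tibet, recovered in a nursery bed and stood in pots for 7 days at 25 °C. Pots were then placed at -5 °C, and leaves were taken after 0, 0.5, 4, 12, 24 or 48 h, with 3 libraries per time and 18 in all. All groups thus share the field origin and the 7 days at 25 °C, and the labels name no line, clone or plant age. Each time was a separate pot, and no pots held at 25 °C for the same hours were analysed here. Hours at -5 °C, pot and time since the move therefore cannot be told apart. Nothing in the labels ties the replicates of a time to different plants, so p-values measure only the spread between these libraries, which may be technical. Leaves were sequenced in bulk, and fewer cells of a type cannot be told apart from less RNA per cell.

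In plants that tolerate frost, a fall in temperature first raises transcription factors. In Arabidopsis these include the CBF family, whose targets follow later and include dehydrins, proteins that protect cells that lose water. Below the freezing point ice can form between the cells and draw water out of them, so a long stay in the cold joins acclimation with dehydration and injury. A row of the assembly is a cluster of assembled transcripts, called a gene below. Clusters linked by shared sequence carry the same component number. Alleles, copies and fragments of 1 plant gene can stand as separate rows. The files do not pair the identifiers with gene names, and no sequences of the assembly were used here, so no function is given for any member, no sequence is shown, and the leaf label was not checked against marker genes.

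Members were chosen on a deposited table of levels scaled for gene length and by TMM, a correction for library composition. Their lowest 48 h value lay above the highest of 14 earlier columns, which held for 1556 genes. In 903 of these the 48 h mean was at least 3 times each of the means at 12 h and 24 h, with 0.1 added to all. A 48 h mean of at least 2 left 341, and at least 10 estimated counts in each 48 h library left 317. The 150 with the highest ratio of the 48 h mean to the highest other time mean, both with 0.1 added, were taken. Ratios ran from 420 down to 4.21 in the last member, and the next genes, left out, stood at 4.14 and 4.12. The last member had a 48 h mean of 3.20 and the gene after it 21.3. These values chose the members, so every contrast with 48 h below is a description.

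Libraries held between 18895399 and 32345479 estimated counts, and the 48 h libraries 27242011, 29985944 and 30304255. In all 214531 rows, the first replicates of 0 h and of 4 h had identical values. The rule counted that column once, at 0 h. Below, it is called the identical library and stands in no time mean, so 0 h and 4 h have 2 libraries each and 16 libraries entered the tests. For 27851 genes, at least 90% of all reads came from 24 h replicate 2, against at most 7033 genes for any other library.

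Before 48 h most of the 150 genes were low or unread. At 0 h the median of their mean scaled levels was 0.0623 over 2 libraries. It was 0.43 at 0.5 h and 0.226 at 4 h, where there were 2 libraries. For 12 h it was 0.24 and for 24 h 0.17. After 48 h it was 5.77, again over 3 libraries. Summed over the members, the level lay between 122 and 385 in the 14 earlier libraries and was 3219, 2082 and 2833 in 48 h replicates 1, 2 and 3. That these sums did not overlap was fixed by the rule, which every member met in the same libraries. Members took 0.0138% to 0.031% of the estimated counts of an earlier library and 0.157% to 0.185% of a 48 h library. The median log2 ratio of the 48 h to the 24 h mean, with 0.1 added, was 4.00 (SD 0.34 over the 48 h libraries taken singly, n = 3), and 4.36 without 24 h replicate 2. Most members stayed modest in level even at 48 h. Their 48 h means lay between 2 and 5 in 66, between 5 and 10 in 33, between 10 and 50 in 44, and above 50 in 7.

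**Figure D1:**
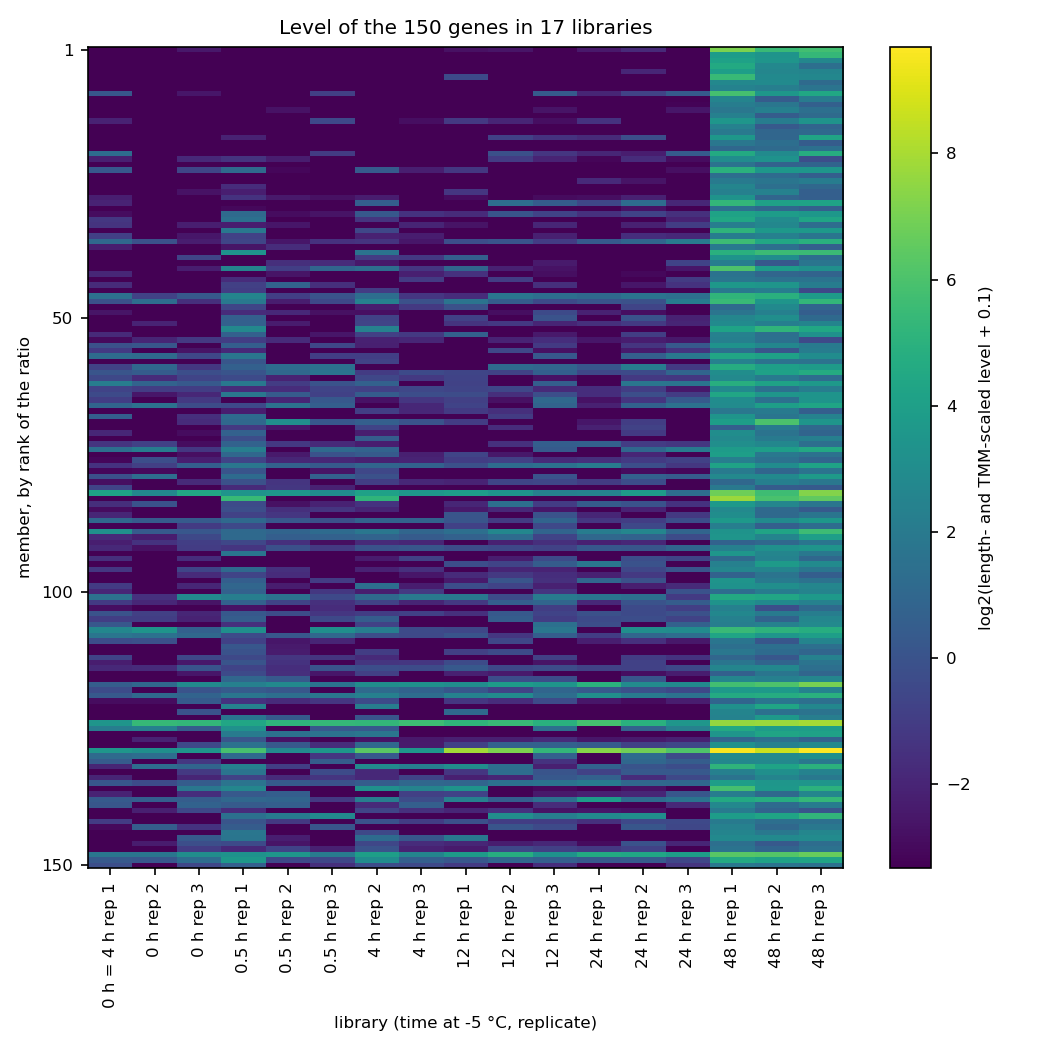
Level of the 150 genes (rows, by rank of the ratio) in 17 libraries (columns), as log2 of the scaled level plus 0.1, with the identical library first. The 48 h columns are filled throughout, the first ranks are dark before 48 h, and 0.5 h replicate 1 is the earlier column in which 119 of the 150 have a read.

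The gene with the highest ratio was TRINITY_DN201151_c3_g1, the only row of its component. Its scaled level was 141, 45.6 and 54.3 in 48 h replicates 1, 2 and 3, from 2396, 1165 and 935 estimated counts. It was 0 in all libraries of 0.5 h and 4 h, in 0 h replicate 2 and in the identical library. The other earlier values were 0.081 in 0 h replicate 3, 0.048, 0.065 and 0 at 12 h, and 0.084, 0.19 and 0 at 24 h. No earlier library held more than 5 counts of it. In a count model fitted across all genes, edgeR, the log2 fold change from 24 h to 48 h was 9.43 (SE 1.0, back-calculated from the F statistic). Its 48 h counts were not whole, as estimated counts can be where reads match several transcripts.

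The most abundant member at 48 h was TRINITY_DN210972_c4_g3, which ranked 129 by ratio. It had 760, 405 and 822 at 48 h. Unlike the first gene it was present from the start, with 8.66 and 11.1 at 0 h and 11.4 in the identical library. At 0.5 h it had 58.6, 6.76 and 11.7, and at 4 h 82.4 and 11.2. It then stood at 235, 139 and 38.8 at 12 h and at 159, 118 and 67.5 at 24 h. Its libraries at 12 h and 24 h overlapped each other and lay above those at 0 h. The row is short: its relative length, explained below, was 0.122, and its counts were not whole. It held 96.9% of the level of its component of 8 genes at 48 h.

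The second most abundant member, ranked 124, was present at every earlier time. It had 42.2 and 38.7 at 0 h, 20.8, 34.5 and 39.9 at 0.5 h, and 39.7 and 50.04 at 4 h. At 12 h it had 36.6, 44.7 and 29.9, and at 24 h 57.0, 30.7 and 11.3, with 11.05 in the identical library. At 48 h it reached 197, 215 and 247, a mean of 219 ± 26 (SD, n = 3). The earlier times overlapped, and no earlier library reached the 48 h range. Its counts were whole in all 48 h libraries, between 13122 and 15965, which makes it the member with the most reads.

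At the other end, 13 members had 0 reads in all 14 earlier columns. They held between 59 and 442 counts over the 48 h libraries together. With 3 counts over the 14 earlier columns as the limit that a count of 0 allows, they were at least 80.8-fold to at least 605-fold higher at 48 h, by counts per library total. These bounds cover counting error only and hold for the single row. Other genes in each of their components had a level above 0 before 48 h. The most abundant of them, which ranked second by ratio, had 14.5, 10.6 and 40.8 at 48 h, from 93, 98 and 222 counts. The next ranked had 17.4, 10.9 and 6.33, and the one after it 23.4, 6.63 and 2.57. Replicate 3 was highest in the first of these and lowest in the other two. In the same order, the other genes of their components together had 0.0673, 9.33 and 6.73 at 24 h. At 48 h those other genes had 0, 14.9 and 2.99. The 48 h means of the 13 ran from 2.03 to 22.0.

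In contrast, 26 members had at least 1 count in every earlier column. Their ratios ran from 4.23 to 14.1 with a median of 5.96, and their 48 h means from 3.08 to 663 with a median of 18.2. The highest ratio among them belonged to the member ranked 36. Its 48 h values were 48.9, 22.3 and 30.02, and its 24 h values 1.17, 1.77 and 3.95. At 12 h it had 0.763, 0.943 and 0.389, and at 0.5 h 0.556, 0.075 and 0.263. The 24 h libraries lay above those at 12 h and 0.5 h, and the identical library, at 1.98, lay within the 24 h range. Over all members the median number of earlier columns with a count was 8 of 14.

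**Figure D2:**
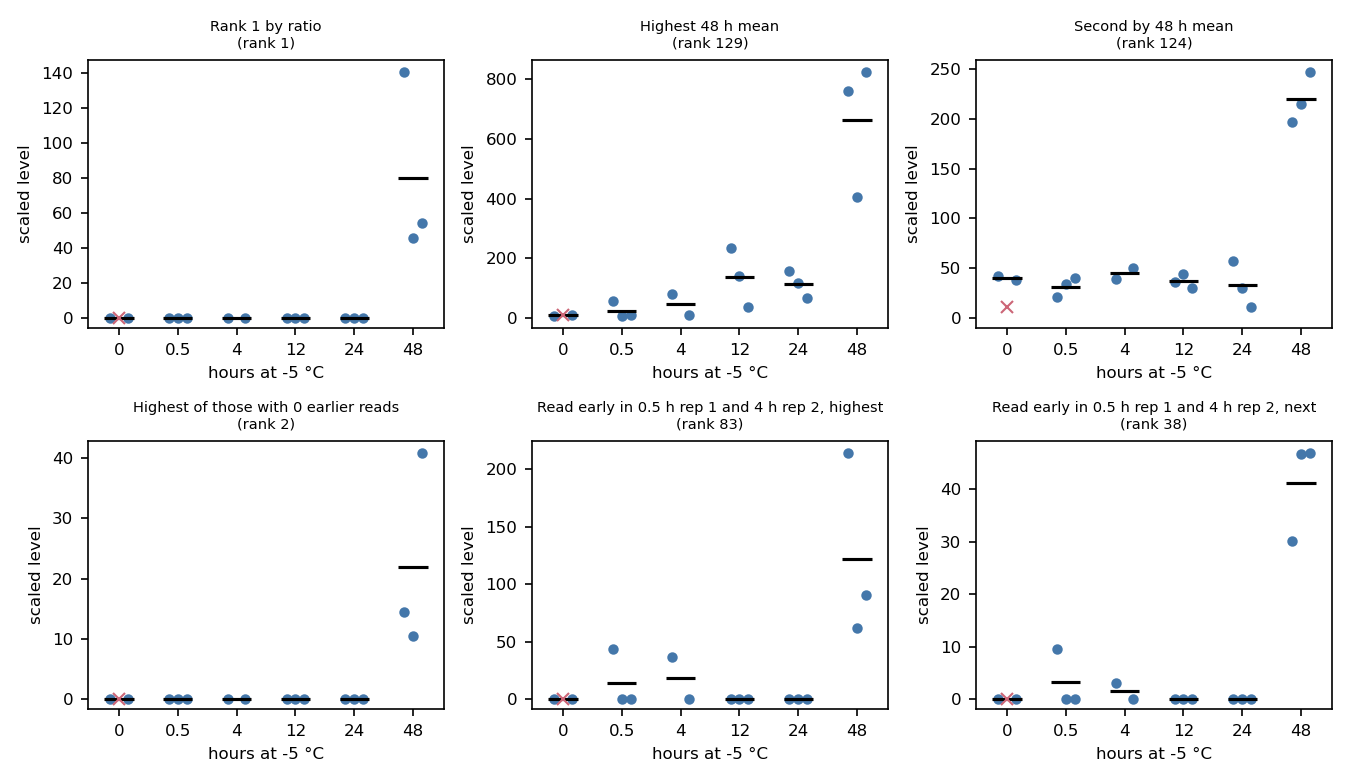
Scaled level of 6 members in each library against hours at -5 °C; points are libraries, bars are means (n = 2 at 0 h and 4 h, n = 3 otherwise) and the cross, drawn at 0 h, is the identical library. The members ranked 1 and 2 lie at or near 0 before 48 h, those ranked 129 and 124 are present at all times, and those ranked 83 and 38 appear early in 1 library of 0.5 h and 1 of 4 h.

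Before 48 h, reads of the members were unevenly spread over the libraries. In 0.5 h replicate 1, 119 of the 150 had a read, against 51 to 100 in the other 13 earlier libraries. The median level there was 14.9% of the 48 h mean, with 0.1 added to both, against 2.86% to 6.67% elsewhere. It held the highest earlier value of 54 members, or 36.0%, whereas it was the highest earlier library in 8.30% of all 27061 genes with a 48 h mean of at least 2 and 10 counts in each 48 h library. In no other library did more than 12 members have their highest earlier value. At least 3-fold above both other 0.5 h libraries, with 0.1 added, were 49 members (32.7%), against 2.95% of the 27061 genes. The rule sets a ceiling on these values, with a further limit on the 12 h and 24 h means, and ranks genes on time means. It can therefore bear on which earlier library holds the highest value, and the 27061 genes were not chosen by these limits. The effect of the rule on these shares was not tested.

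Early reads of some members were also found in 4 h replicate 2. It held the highest earlier value of 7 members, fewer than 12 h replicate 1 with 12, and 98 members had a read there, against 100 in 24 h replicate 2. In 4 h replicate 2, 42 members (28.0%) were at least 3-fold above 4 h replicate 3, against 3.41% of the 27061 genes. In 23 members (15.3%) the highest 2 earlier values were those of 0.5 h replicate 1 and 4 h replicate 2, as in 1.19% of the 27061. In 9 members, from 9 components, these were the only earlier libraries with any read. None of the other 90 pairs among the 91 possible pairs of earlier libraries had more than 1 such member. For those other pairs, genes that were no members were not counted. The pattern of 0.5 h replicate 1 and 4 h replicate 2 was chosen for description after the values were seen.

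The most abundant of the 9, ranked 83, had 43.6 in 0.5 h replicate 1 and 37.0 in 4 h replicate 2, from 289 and 253 estimated counts, and 0 in the other 12 earlier libraries. At 48 h it had 214, 62.3 and 90.4. The next, ranked 38, had 9.64 and 3.00 in the same libraries and 30.03, 46.6 and 46.8 at 48 h. The member ranked 52 had 6.66 and 5.15, and 18.3, 36.3 and 21.5 at 48 h. For these genes the libraries of 1 time thus divide into some with and some without reads. Over the 9 the level was a median 26.2% of the 48 h mean in 0.5 h replicate 1 (lowest 14.4%, highest 64.5%) and 13.7% in 4 h replicate 2 (lowest 2.90%, highest 38.5%). The same presence of reads was found in 21 of the 27061 genes with a 48 h mean of at least 2 and 10 counts in each 48 h library. The 9 members are among these 21. Across the tested genes that were no members, the rank correlation with the 48 h mean level was 0.87 in 0.5 h replicate 1 and 0.833 in 4 h replicate 2, against 0.798 to 0.841 in the 12 others. The 48 h level is common to all these correlations, and genes are not independent replicates.

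**Figure D3:**
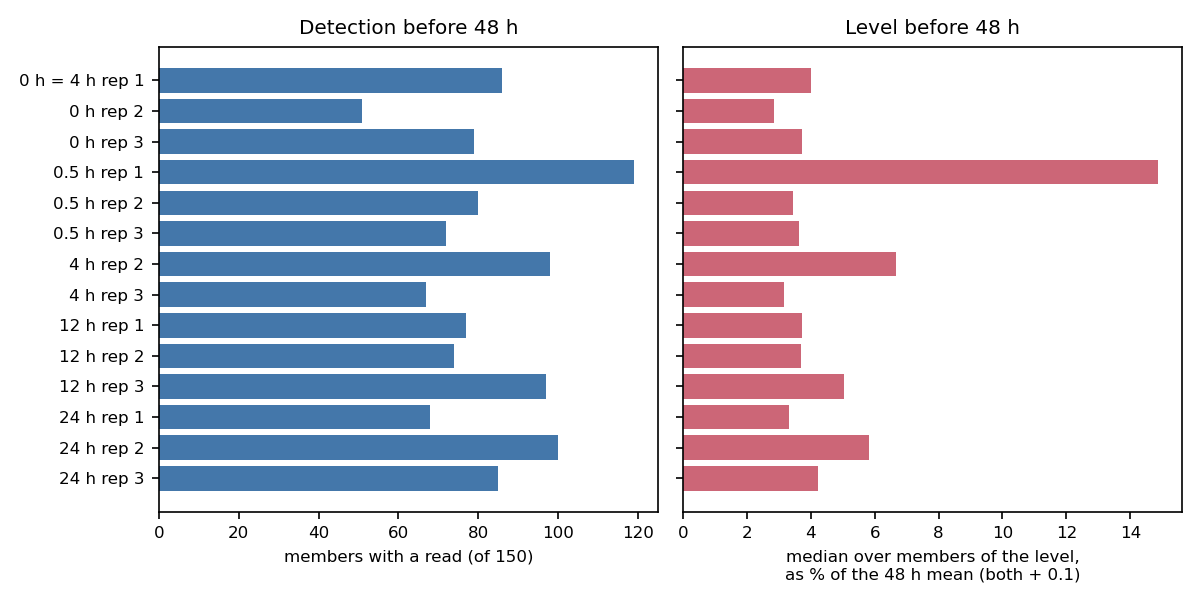
Members with a read (left, of 150) and the median over members of the level as a percentage of the 48 h mean, both with 0.1 added (right), in each earlier library, with the identical library first. In 0.5 h replicate 1 these were 119 and 14.9%, and in the other libraries at most 100 and 6.67%.

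Whether the members moved before 48 h was tested without the 48 h contrast. Counts were fitted in 1 edgeR quasi-likelihood model of 16 libraries with Benjamini-Hochberg adjustment over 68030 genes, and called means an adjusted p under 0.05. The rule keeps earlier levels low against 48 h, so these tests are not fully independent of it. On simulated counts, the test among 0 to 24 h called 12% of genes changed 4-fold at 24 h and 88% of those changed 16-fold. The changed genes were drawn from above a floor of expected counts. Across the 14 earlier libraries a median of 36 members had at least 10 counts, so these shares may be too high for members. A count of 0 called therefore does not show that members did not move. All 150 members passed the filter on low counts, through their 48 h libraries, while 77 passed it in a fit without 48 h. Among 0, 0.5, 4, 12 and 24 h together, 0 of 150 were called, where 0.316% of all genes were. At an unadjusted p under 0.05 there were 24 members (16%), against 8.58% of all genes. The other 73 were in the test only through the libraries that chose them, so the counts over 150 support nothing. In the fit without the 48 h libraries 0 of the 77 were called (background 0.245%), and 9 of 77 had an unadjusted p under 0.05, where 7.57% of genes did. DESeq2 called 7 of the 150, of which 14 had no adjusted p (background 2.43% of all 68030 genes, those with no adjusted p included), and limma, on scaled levels, called 0 (background 0.42%). When 4 h replicate 2 or 4 h replicate 3 was left out, edgeR called 1 member each time, where 0.113% and 0.102% of all genes were called.

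Step by step, edgeR called 0 members at 0.5 h against 0 h (background 0.00588%). It also called 0 from 0.5 h to 4 h (background 0%), from 4 h to 12 h (0.0382%) and from 12 h to 24 h (0%). At an unadjusted p under 0.05 the steps gave 14 members, all higher at 0.5 h, then 10 (2 higher, 8 lower), 14 (5 higher, 9 lower) and 8 (1 higher, 7 lower). These are 9.33%, 6.67%, 9.33% and 5.33% of members, beside 5.98%, 7.71%, 6.04% and 2.97% of all genes. Among the 77 that passed the filter without 48 h, 0 were called at each step in the fit without those libraries (backgrounds 0%, 0%, 0.0297% and 0%). There 10, 6, 10 and 3 of the 77 had an unadjusted p under 0.05, where 5.51%, 7.39%, 5.74% and 2.68% of genes did. DESeq2 called 5 members at the first step, all higher, and 4 at the third, all lower, with 0 at the others, where its backgrounds were 0.366%, 0.681%, 0.816% and 0.0456%. In DESeq2, 26, 36, 55 and 40 of the 150 had no adjusted p at the steps in order of time and could not be called. In limma all steps gave 0 (backgrounds 0.151%, 0.119%, 0.0676% and 0%). The median log2 fold change of the 150 members at 0.5 h against 0 h was 1.12, and 0.10 over all genes tested. In 63 members the mean level at 0 h was 0. This median takes in the members outside the 77, which were tested only through their 48 h libraries, so nothing is read from it. The part that 0.5 h replicate 1 had in this median was not tested.

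The member with the lowest adjusted p in the edgeR test of 0 to 24 h together, over the 16 libraries, ranked 126 by ratio and had its early reads in all libraries of 0.5 h. Its levels were 4.15, 2.81 and 2.75 at 0.5 h, and 3.34 and 0 at 4 h. It was at 0 in both 0 h libraries, in the identical library and in all libraries of 12 h and 24 h, and reached 11.5, 19.5 and 17.2 at 48 h. The 0.5 h and 0 h libraries did not overlap. In the test of 0 to 24 h together its adjusted p was 0.075 (edgeR quasi-likelihood F test), so it was not called. The other genes of its component, which holds 6, together had 15.6 at 24 h and 3.85 at 48 h. With the member included, the component had 15.6 at 24 h and 19.9 at 48 h, and its 48 h sums did not lie above all earlier sums. The member ranked 64 had 3.47, 1.21 and 0.463 at 0.5 h against 0.073 and 0.17 at 0 h, and 20.5, 11.5 and 10.4 at 48 h. From 0 h to 0.5 h its log2 fold change was 3.66 (SE 0.85, back-calculated; edgeR adjusted p = 0.44).

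The rule used 48 h against all earlier times, so the following counts are given beside their background and nothing is read from them. From 24 h to 48 h edgeR called 6 members, where 0.0265% of all genes were called higher, and from 0 h to 48 h also 6, where 0.0397% were. Of these, 4 were called in both. At an unadjusted p under 0.05 there were 132 members in each, where 4.69% and 5.04% of all genes were higher. For 48 h against 24 h the count was 12 when 12 h replicate 1 was left out (background 0.0818%), and 3 when 4 h replicate 2 or 3 was (0.00735% and 0.00722%). Leaving out either 0 h library, or any single library of 24 h or 48 h, gave 1 (backgrounds from 0.00151% to 0.00607%). For 48 h against 0 h it was 0 when 0 h replicate 2 or 3 was left out (0.00932% and 0.00623%). Leaving out 48 h replicate 1, 2 or 3 gave 2, 2 or 3 (0.0223%, 0.0227% and 0.0238%). DESeq2 called 68 and 55 members (backgrounds 0.88% and 0.776%) and limma, on scaled levels, called 116 and 110 (backgrounds 0.588% and 0.52%). In DESeq2, 3 and 17 members had no adjusted p.

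The 48 h libraries differed among themselves. Replicate 1 was the highest in 87 members (58.0%), replicate 2 in 28 (18.7%) and replicate 3 in 35 (23.3%). Over the 27061 genes these shares were 31.9%, 30.9% and 37.1%. The coefficient of variation at 48 h had a median of 44.3% in members and 33.2% in the 27061 genes. The highest and lowest 48 h library differed less than 2-fold in 55 members and at least 5-fold in 13. The steadiest member, ranked 110, had a 48 h mean of 2.59 ± 0.027 (SD, n = 3). By coefficient of variation the most variable, at 111%, ranked 6 and had 43.3, 7.10 and 6.39. By the fold between its highest and lowest 48 h library, 6.77, it was exceeded by others, up to 12.7 in the member ranked 21.

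Members were shorter than most genes. Estimated counts divided by the scaled level are proportional to a gene's effective length, and were set to 1 at the median of genes with at least 100 counts in a library. By this measure the median relative length of members was 0.339 (quartiles 0.205 and 0.578), against 0.672 over the 27061 genes. In all, 119 members (79.3%) had whole counts, within 0.005, in all 48 h libraries, against 84.0% of the 27061. No cause of the shorter length was tested.

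The 150 members lay in 140 components, 2 with 3 members and 6 with 2. In 1 component of 3 genes all were members, ranked 6, 41 and 75. At 48 h replicates 1, 2 and 3 they had 43.3, 7.10 and 6.39, then 66.7, 13.8 and 9.07, and then 15.8, 3.57 and 2.91. All were highest in replicate 1. At 0.5 h the genes ranked 41 and 75 had 5.45 and 1.95 in replicate 1, 0.44 and 0.091 in replicate 2, and 1.80 and 0.876 in replicate 3, while the gene ranked 6 had 0 in each. Genes of a component share sequence, so their values are not independent.

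The other genes of these components tell how far a member's pattern was that of its whole component. Of 494 such genes, 171 had a mean level of at least 2 at some time. In 21 of these (12.3%) all 48 h libraries lay above all earlier ones, where 1.82% of all such genes did, and in 1 (0.585%) they lay below, where 0.647% did. Their median log2 ratio of 48 h to 24 h was 0.32, and 0.03 over all such genes. Summed levels of the 124 components with several genes were at least 3-fold higher at 48 h than at 24 h in 77 (62.1%, background 3.46%). They were within 1.5-fold in either direction in 21 and lower in 7. Those 21 and 7 overlap, and no background is given for either. In 61 (49.2%, background 1.76%) the 48 h sums lay above all earlier sums. The members are part of these sums and raise them, so this is a description, and the median share of members in the sum at 48 h was 54.7%. With members left out, the summed level of the other genes was lower at 48 h than at 24 h in 32 of the 124 components. No background is given for that count.

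**Figure D4:**
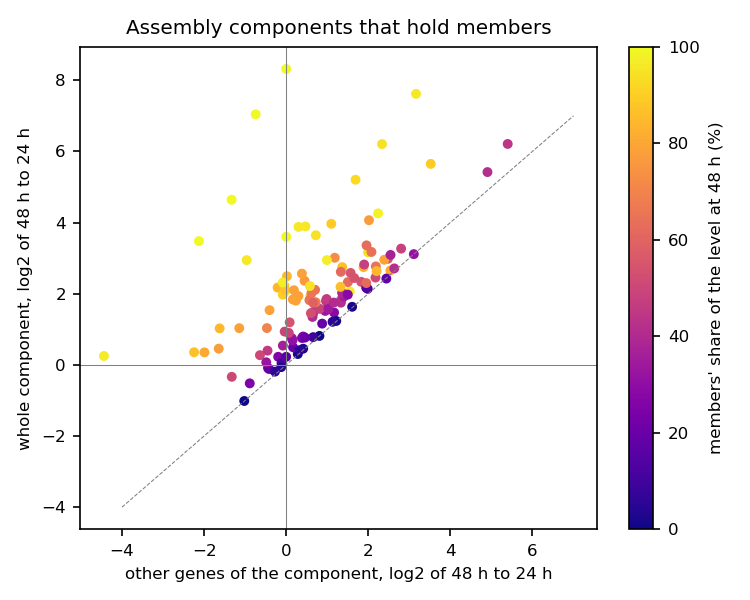
Each point is 1 of the 124 components with several genes: log2 ratio of 48 h to 24 h level (0.1 added) of its other genes (x) and of the whole component, members included (y), coloured by the members' share of the level at 48 h. Points on the dashed line are components whose sum moved as the other genes did; 77 of the 124 sums were at least 3-fold higher at 48 h.

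Some components show both ends of this range. The component of the most abundant member had a summed level of 137 at 24 h and 684 at 48 h, while its other genes together had 22.3 and 21.04. The component of the member ranked 36 had 817 at 24 h and 1119 at 48 h, of which that member gave 3.02%. In the component with the lowest ratio, the sum was 4424 at 24 h and 2188 at 48 h, and its member contributed 8.71 at 48 h. There the sum was lower at 48 h than at 24 h, and the member was higher.

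The same limits on level and counts were set at the other times with 3 libraries. All libraries of the time lay above all others, with a mean of at least 2 and 10 counts each, in 680 genes at 48 h. The same held in 242 genes for 0.5 h, in 52 for 24 h and in 11 for 12 h. With a ratio at least that of the last member, 0.5 h had 83 genes, and both 12 h and 24 h had 0. At 48 h there were 150, a number fixed in advance because the cutoff was taken from the 48 h ratios. No test of the difference between these counts was made.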

How the data were processed

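Leaf RNA was extracted with Trizol, made into libraries with an MGIEasy mRNA kit and sequenced by BGI-seq, per the labels' protocols. The submitters' processing notes name Trimmomatic 0.36 and FastQC. Which aligner and counting tool were used is not stated in the labels. Estimated counts for each assembled gene, unscaled, were deposited by the authors. They also deposited a signal table, scaled for length and by TMM per its name, whose column sums have a geometric mean of 1e+06, as TPM divided by TMM factors would. Columns were matched by sample title. Rounded counts were tested with edgeR 4.0.16 under R 4.3.3 (genes kept by filterByExpr, TMM, quasi-likelihood F test, a mean per time); limma 3.58.1 on log2(value + 1) and DESeq2 1.42.0 were alternatives. Both copies of the identical library were left out of tests.

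Members, lists and tests were chosen with earlier results of these data known. Identifiers printed are the member with the highest ratio and that with the highest 48 h mean. The member ranked 126 and the pattern of 0.5 h replicate 1 and 4 h replicate 2 were described after values were seen. Members named by rank were picked for description with their values seen. The scripts were tested on counts simulated with the fitted spread, with changes set at 24 h in genes above a floor of expected counts. Of 50 genes changed 4-fold, edgeR called 8% from 12 h to 24 h and 12% among 0 to 24 h. Of 50 changed 16-fold, it called 82% and 88%. Among unchanged genes, 9 and 4 were called. Alternatives covered scaling, filters, tools, each library left out, the replicate block and the identical library; leaving out 0.5 h replicate 1 and 4 h replicate 2 together was added after the data were seen.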

Additional observations from a re-analysis of the deposited data

How the results depend on the processing

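Leaving out each of the 16 libraries gave 0 members called at each of the 4 steps and 0 to 1 among 0 to 24 h. Without a filter on low counts edgeR called 11, 4, 13 and 4 members at the 4 steps in order of time and 33 among 0 to 24 h, where 0.392%, 0.628%, 0.638%, 2.44% and 6.03% of all genes were called. DESeq2 called 5 and 4 at the first and the third of these steps and 7 among 0 to 24 h. Among 0 to 24 h, 1 was called with the identical library at 0 h alone (background 0.533%), and 2 components with counts summed over components (0.329%). For 48 h against 24 h the 6 calls became 102 without a filter (background 0.504%), 116 in limma, 68 in DESeq2 and 3 of 140 components (0.0336%), and 1 to 12 with each library left out. For 48 h against 0 h the 6 became 69 without a filter (0.301%), 110 in limma, 55 in DESeq2, 3 with library size alone (0.0279%), 15 with all 18 columns (0.117%), and 0 to 9 with each library left out. Keeping the identical library only at 0 h gave 26 members called from 0 h to 48 h (0.18% of all genes), and keeping it only at 4 h gave 3 (0.0318%). With the replicate number as a block they were 2 (0.0206%), and 4 for 48 h against 24 h. The block gave 0 calls before 48 h. Deviations from the time means had a correlation over 0.1 in 4 of 15 pairs of same-numbered libraries for replicate 2. For replicates 3 and 1 this held in 2 of 15 and 0 of 6 pairs. The highest correlations were 0.369 for replicate 3 and 0.203 for replicate 2. Libraries of different numbers were not compared, so whether the numbers pair the samples was not tested.

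The 317 genes meeting the rule became 493 with 12 h and 24 h at most 0.5 of 48 h, 184 with a 48 h mean of at least 5, and 312 to 627 with each library left out, the highest without 48 h replicate 3. Of the 150 members 88, 124 and 97 stayed among the first 150 when 48 h replicate 1, 2 or 3 was left out, 113 when 0.5 h replicate 1 was, and 82 when CPM replaced the scaled level. Without 0.5 h replicate 1 and 4 h replicate 2 together, a setting added after the data were seen, 412 genes met the rule and 98 members stayed. The median log2 ratio of 48 h to 24 h of 4.00 was 2.23 with a pseudocount of 1, 3.40 in CPM and 3.79 to 4.36 with each 24 h or 48 h library left out. The cause of these shifts was not tested.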
